A study of Mus musculus with 6 samples.

Results

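Cell cycle genes were examined in lungs of Col6a1-/- and wildtype mice, as a set of 41 genes chosen by name for their known roles, 14 of S phase and 27 of G2 and mitosis (G2/M). All 41 were found among the 49568 rows of the deposited table, and all 41 were among the 16879 genes tested. The lungs came from C57BL/6 mice aged 6 weeks, either wildtype or Col6a1-/-, and the labels name neither a treatment nor the sex. Col6a1 encodes a chain of collagen VI, a matrix protein. Each library was made from total RNA of perfused right lung lobes, pooled from 2 animals of 1 genotype, and there were 3 libraries per genotype with no animal in more than 1 pool. The allele is described no further in the labels, and Col6a1 itself stood at 49.5% of the wildtype level in the Col6a1-/- libraries, with normalized counts of 9344 to 10616 against 18393 to 22331 (limma adjusted p 0.00643, but 0.066 without wildtype replicate 1 and 0.123 without Col6a1-/- replicate 3). Transcript from the locus was still counted in the Col6a1-/- lungs.

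Cells that divide copy their DNA in S phase and separate it in mitosis, and each step draws on its own set of genes. The S-phase genes are switched on largely by E2F factors as cells leave G1, whereas many G2/M genes are held back in resting cells by the DREAM complex, which contacts the CHR element of their promoters. In bulk tissue of a young adult lung, where most cells rest, transcripts of these genes are commonly read as a sign of how much the tissue proliferates. With whole lung RNA, fewer cycling cells and less RNA per cycling cell cannot be told apart.

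RefSeq promoter windows (GRCm38.p6, 250 bases before to 50 after a transcription start) were matched for 12 of 14 S-phase and 23 of 27 G2/M members. Mcm4, Gins2, Aurkb, Kif20a, Ccna2 and Tpx2 were not matched. Each window was searched on both strands for the CHR element TTTGAA, the CCAAT box CCAAT, and 4 forms of the E2F site, TTTGGCGC, TTTCCCGC, TTTGCCGC and TTTCGCGC. A gene with more than 1 window was counted once. The CHR letters were present for 18 of 23 G2/M members (78.3%), for 2 of 12 S-phase members (16.7%, Mcm2 and Cdc45) and for 20.2% of all 27025 genes with a window. The CCAAT box was present for 21 of 23 G2/M members (91.3%), 8 of 12 S-phase members (66.7%) and 41.1% of all genes. All 18 G2/M members with the CHR letters also held a CCAAT box, a pair found for 7.97% of all genes. An E2F form was present for 5 of 12 S-phase members (41.7%), namely Mcm3, Mcm5, Mcm6, Mcm7 and Cdc6, for 1 of 23 G2/M members (4.35%, Cdk1) and for 2.6% of all genes. These matches describe letters in the windows and not bound sites. Windows follow RefSeq starts, which can differ from the annotated start of the gene. The E2f1 window (chr2:154569377-154569676), which held no E2F form, lies wholly inside the annotated gene, which begins at 154569892 on the minus strand. Windows of some other members, among them Cdca8, also lie inside the gene.

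The windows below belong to the S-phase and G2/M members with the smallest p values among those with a match, and show the contrast between the phases. Capitals mark the searched letters on either strand, and the last 50 bases follow the start. Mcm3 lies at chr1:20820263-20820562 (minus strand), Mcm5 at chr8:75109259-75109558 (plus strand), Mki67 at chr7:135716330-135716629 (minus strand) and Bub1b at chr2:118597961-118598260 (plus strand).
Mcm3: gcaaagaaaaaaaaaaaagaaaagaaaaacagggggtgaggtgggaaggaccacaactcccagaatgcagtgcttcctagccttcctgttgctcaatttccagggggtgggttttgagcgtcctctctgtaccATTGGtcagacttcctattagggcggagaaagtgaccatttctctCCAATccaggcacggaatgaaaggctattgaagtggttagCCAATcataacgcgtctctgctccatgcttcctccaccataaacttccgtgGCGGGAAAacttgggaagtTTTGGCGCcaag
Mcm5: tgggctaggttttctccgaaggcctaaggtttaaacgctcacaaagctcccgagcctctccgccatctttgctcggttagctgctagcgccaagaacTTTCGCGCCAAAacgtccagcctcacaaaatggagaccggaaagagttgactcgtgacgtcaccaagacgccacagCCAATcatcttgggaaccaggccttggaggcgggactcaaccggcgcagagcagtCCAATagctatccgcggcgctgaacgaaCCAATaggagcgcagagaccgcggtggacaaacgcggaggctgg
Mki67: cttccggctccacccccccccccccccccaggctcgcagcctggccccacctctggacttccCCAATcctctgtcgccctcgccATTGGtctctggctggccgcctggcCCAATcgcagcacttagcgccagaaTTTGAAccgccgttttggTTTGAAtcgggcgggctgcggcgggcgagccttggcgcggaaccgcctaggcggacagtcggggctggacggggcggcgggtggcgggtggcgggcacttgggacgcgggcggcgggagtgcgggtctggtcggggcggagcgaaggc
Bub1b: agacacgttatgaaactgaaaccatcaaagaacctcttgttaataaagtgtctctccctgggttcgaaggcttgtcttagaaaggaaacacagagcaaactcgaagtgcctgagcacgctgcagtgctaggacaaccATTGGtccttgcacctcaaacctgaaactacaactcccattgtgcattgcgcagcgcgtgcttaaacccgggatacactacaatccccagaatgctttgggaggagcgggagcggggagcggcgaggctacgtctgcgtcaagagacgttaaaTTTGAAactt
Mcm3 and Mcm5 carried 3 CCAAT boxes and 2 E2F forms each and no CHR letters. In Mcm5 the E2F forms share bases with each other, so that 1 run of capitals holds both. Mki67 carried 2 CHR elements, beginning at -116 and -98 from the start, behind 3 CCAAT boxes. Bub1b carried 1 CHR element at 40 bases past the start and 1 CCAAT box.

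No member passed the genotype test. Of the 41 members, 33 had lower and 8 had higher estimates in Col6a1-/- lungs, where over all tested genes 48.3% had lower estimates. The median log2 fold change was -0.099 for the S-phase members and -0.25 for the G2/M members, against 0.0098 over all tested genes. None of the 41 was called by limma at an adjusted p of 0.05, while 0.0652% of all tested genes were (0.0474% lower), and none was called by edgeR or DESeq2 on recovered reads (0.077% and 5.06% of tested genes). At an unadjusted p under 0.05 limma held 3 members, Mcm3, Mki67 and Aurkb, all lower, which is 7.32% of the members against 20.3% of all tested genes (10.6% lower and 9.72% higher). In the authors' deposited table none of the 41 had an adjusted p under 0.05 either, where 5.05% of the genes with an adjusted p did, and the smallest of a member was 0.133 for Aurkb. For 6 members, all lower, every Col6a1-/- library lay below every wildtype library (Mcm2, Mcm3, Mcm5, Mcm7, E2f1 and Bub1b). That is 14.6% of the members, beside the 14.2% of all tested genes that were lower without overlap. The share differed by phase, with 5 of 14 S-phase members (35.7%) and 1 of 27 G2/M members (3.70%). In either direction 24.9% of all tested genes had no overlap (10.7% higher).

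**Figure D1:**
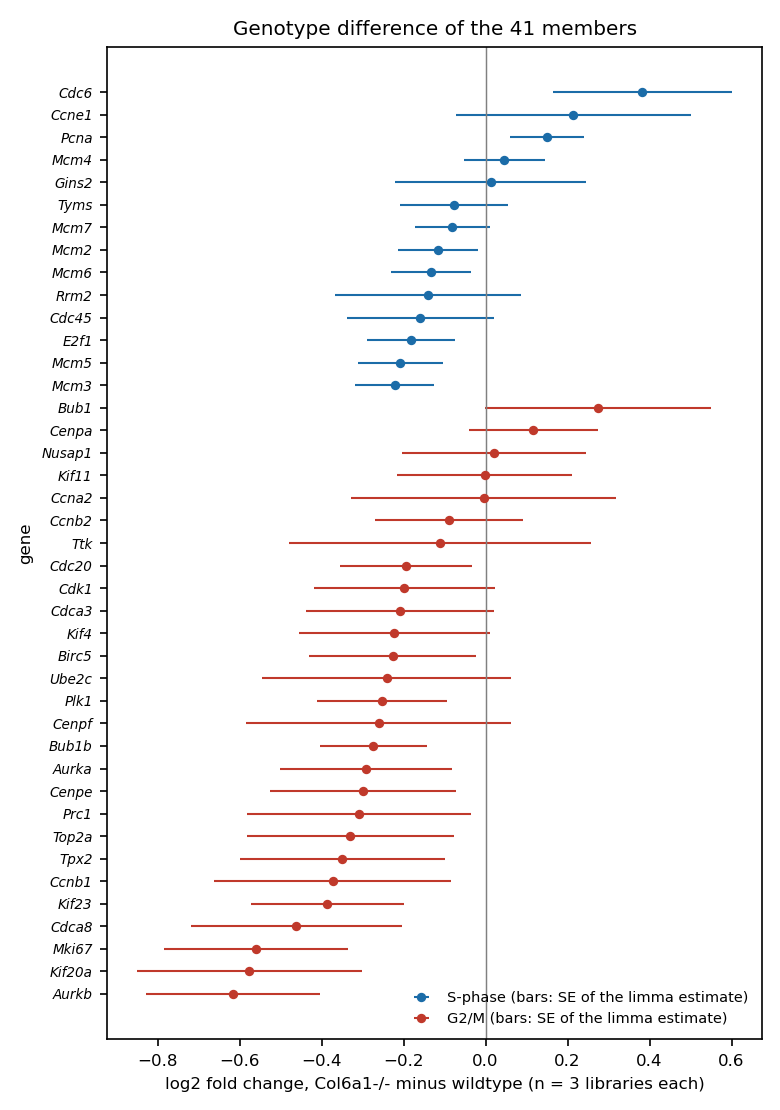
Log2 fold change of each of the 41 members, Col6a1-/- minus wildtype (horizontal axis), with the SE of the limma estimate as bars, S-phase members in blue and G2/M members in red, 3 libraries per genotype. 24 of 27 G2/M estimates and 9 of 14 S-phase estimates lie below 0. The median SE is 0.23 for G2/M and 0.11 for S-phase members, with overlapping ranges.

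The G2/M members varied together from library to library. All 27 G2/M members had their highest level in the same library, wildtype replicate 3, and 23 of the 27 had their lowest level in Col6a1-/- replicate 2. Over all tested genes 15.3% were highest in wildtype replicate 3 and 16.9% lowest in Col6a1-/- replicate 2, and 3.82% met both conditions. Among the S-phase members 9 of 14 were highest in wildtype replicate 3, 4 were lowest in Col6a1-/- replicate 2, and 3 met both conditions (Rrm2, Tyms and Cdc45). The ratio between these libraries ran from 1.25 for Cenpa to 3.24 for Kif20a over the G2/M members, with a median of 2.11. For the S-phase members it ran from 0.789 for Cdc6 to 2.0 for Rrm2, with a median of 1.14.

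**Figure D2:**
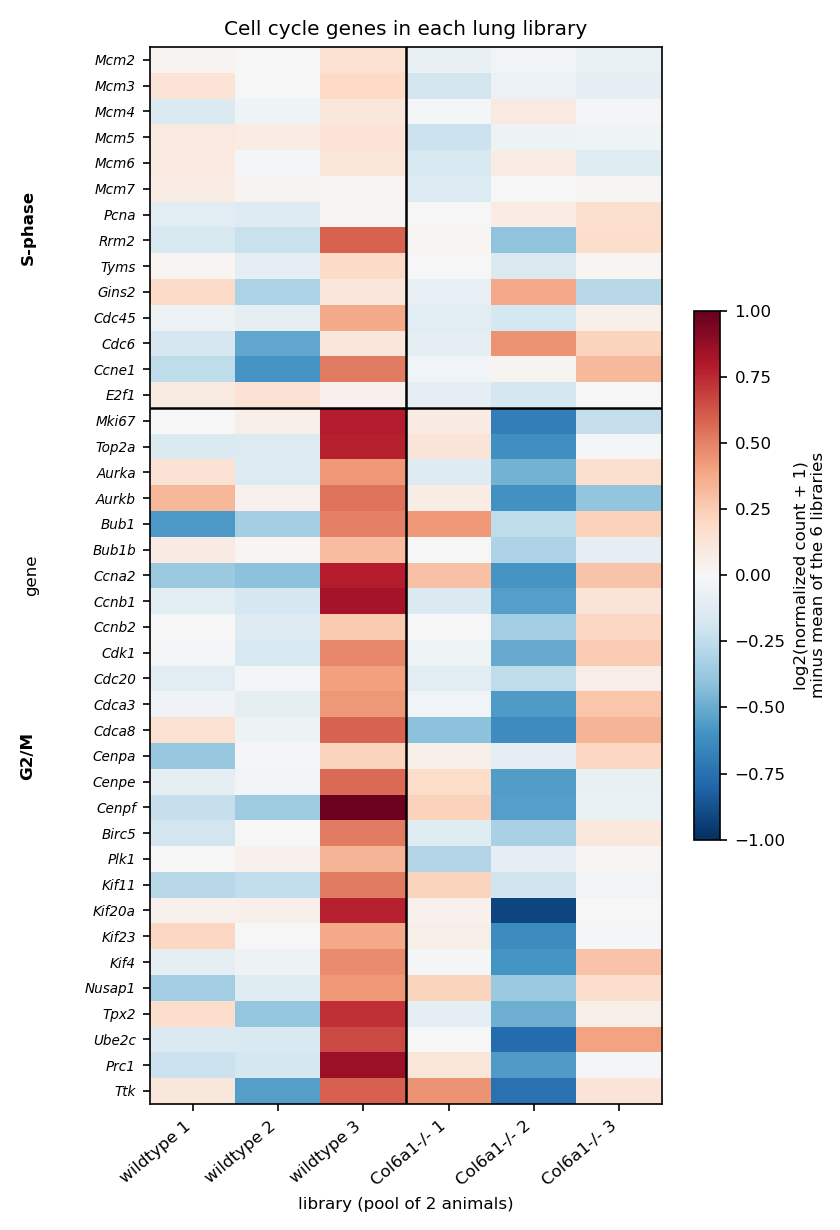
Level of each member (rows) in each library (columns) as log2(normalized count + 1) minus its mean over the 6 libraries, red above and blue below the mean. The G2/M block is red throughout wildtype replicate 3, and 23 of its 27 genes are lowest in Col6a1-/- replicate 2, while the MCM rows at the top stay pale.

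The mean level of the G2/M members, relative to the mean of the 6 libraries on the log2 scale, was -0.075, -0.13 and 0.56 in wildtype replicates 1, 2 and 3. In Col6a1-/- replicates 1, 2 and 3 it was 0.046, -0.49 and 0.089. Wildtype replicates 1 and 2 thus lay below Col6a1-/- replicates 1 and 3. For the S-phase members this mean level stood at -0.011, -0.13 and 0.19 in wildtype libraries. It stood at -0.083, 0.0030 and 0.025 in Col6a1-/- libraries, within the wildtype range. The SD of the mean level between libraries of 1 genotype was 0.36 for G2/M and 0.12 for S phase. Both phases were highest in wildtype replicate 3, where G2/M exceeded S phase by 0.37. The MCM genes were at 0.13 in that library and the 8 other S-phase members at 0.25. In Col6a1-/- replicate 2 G2/M fell short of S phase, with a difference of -0.50. In the other 4 libraries the difference was -0.064, -0.0022, 0.13 and 0.064.

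**Figure D3:**
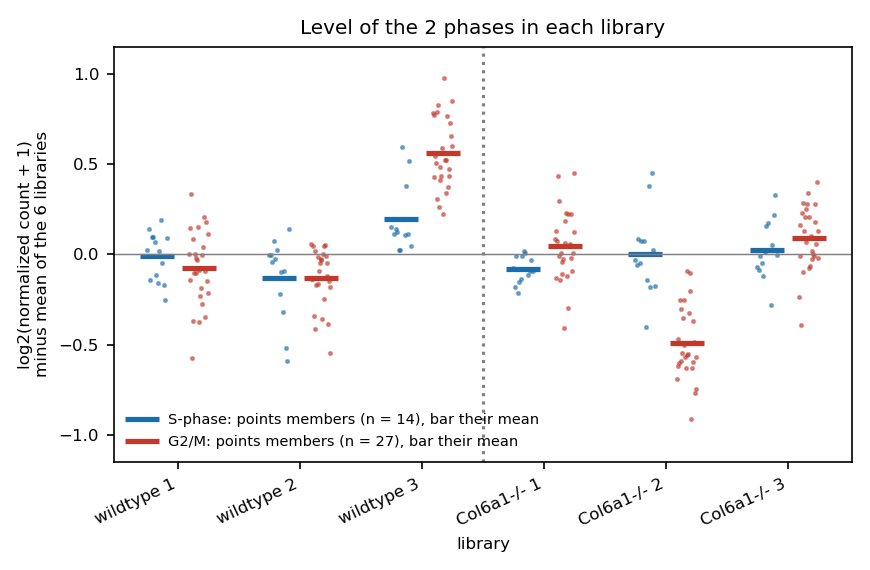
Deviation of each member from its 6-library mean, log2 scale (points), with the mean of each phase (bars) in each library, S-phase in blue and G2/M in red. The red bars span -0.49 to 0.56 and the blue bars -0.13 to 0.19.

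The recovered reads were also scaled to a common number of reads in genes (RPM). The 27 G2/M members summed to 198, 197 and 318 RPM for wildtype replicates 1, 2 and 3. For Col6a1-/- replicates 1, 2 and 3 they summed to 223, 148 and 221 RPM, with wildtype replicate 3 highest and Col6a1-/- replicate 2 lowest again. The 14 S-phase members took 243, 237 and 262 in wildtype and 232, 243 and 249.6 in Col6a1-/- libraries. The mean over libraries was 238 ± 69.8 against 197 ± 43.0 RPM for G2/M and 247 ± 13.4 against 241 ± 9.05 for S phase (wildtype against Col6a1-/-, SD, n = 3 each), so that both differences lay within the spread between libraries. Wildtype libraries had G2/M to S-phase read ratios of 0.814, 0.833 and 1.21, and Col6a1-/- libraries of 0.964, 0.609 and 0.885, so that the ranges overlapped. Libraries held 28055414 to 37904878 reads in genes. Wildtype replicate 3 held 32198845 and Col6a1-/- replicate 2 held 28402873 of them, and the part of depth in the G2/M levels was not tested.

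Leaving out single libraries moved these counts. Without wildtype replicate 3 the G2/M median was -0.037, with 17 of 27 members lower, and the S-phase median was -0.0043, with 7 of 14 lower. Without Col6a1-/- replicate 2 the G2/M median was -0.10, with 16 of 27 lower, and the S-phase median was -0.11. With any of the other 4 libraries left out the G2/M median lay between -0.38 and -0.30. In none of the 6 fits was a member called. Of all tested genes 8.26% were called without wildtype replicate 3, 0.281% without Col6a1-/- replicate 2, 0.0779% without Col6a1-/- replicate 1, 0.012% without wildtype replicate 2, and none without wildtype replicate 1 or Col6a1-/- replicate 3. The count of members with higher estimates was 17 without wildtype replicate 3, 16 without Col6a1-/- replicate 2 and 5 without wildtype replicate 1 or without wildtype replicate 2.

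**Figure D4:**
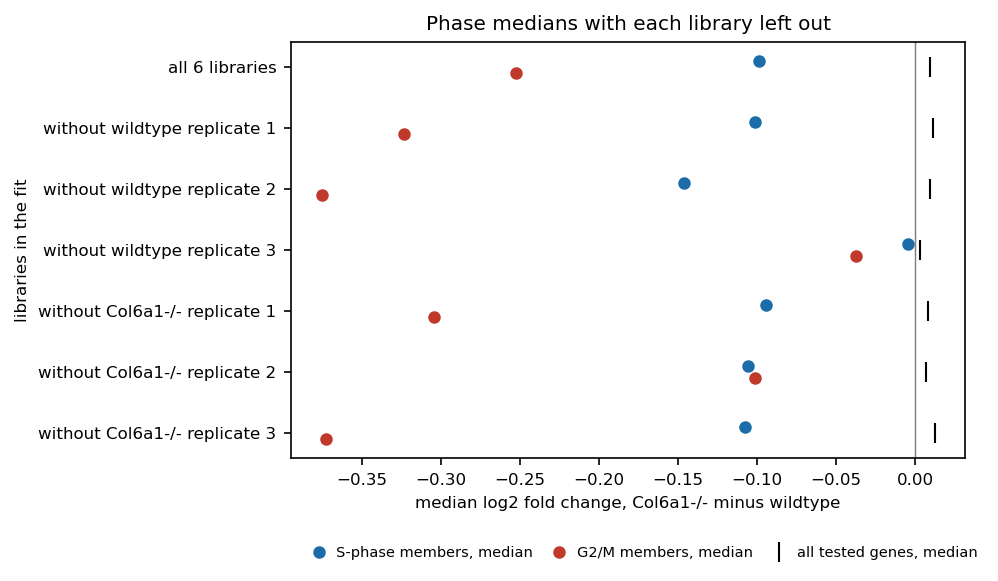
Median log2 fold change, Col6a1-/- minus wildtype, of the S-phase members (blue), the G2/M members (red) and all tested genes (black ticks), for the fit on all 6 libraries and with each library left out in turn. The red point moves from -0.25 to -0.037 without wildtype replicate 3 and to -0.10 without Col6a1-/- replicate 2.

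Other measures also differed between these libraries, and their part in the G2/M levels was not tested. Mitochondrial genes took 1.18%, 1.09% and 1.99% of reads in genes for wildtype replicates 1 to 3. They took 2.29%, 1.88% and 2.17% for Col6a1-/- replicates 1 to 3. The level of Y-linked genes, as a percentage of the highest library, was 0.299%, 3.42% and 50.6% for wildtype replicates 1 to 3. It was 73.6%, 100% and 51.6% for Col6a1-/- replicates 1 to 3, so that the male share of the pools was not balanced between genotypes. With this share as a covariate all 27 G2/M estimates were lower (median -0.34), the S-phase median was -0.24, and no member was called. That fit called 0 of the 16879 tested genes, and its median over all tested genes was 0.00078. Fat tissue markers (6 of 6 tested, all with higher estimates in Col6a1-/- lungs) had their extremes reversed relative to the G2/M genes. Their mean level was -1.28 in wildtype replicate 3 and 1.13 in Col6a1-/- replicate 2. Elsewhere both sets shared a sign in every library. Fat levels were -0.12 (wildtype replicate 1), -0.58 (wildtype replicate 2), 0.39 (Col6a1-/- replicate 1) and 0.47 (Col6a1-/- replicate 3). G2/M levels, taken in that order, were -0.075, -0.13, 0.046 and 0.089. The summed normalized counts of the fat tissue markers were 1148 to 2176 in wildtype and 2680 to 4433 in Col6a1-/- libraries, and none of the 6 was at 0. B cell markers, 9 of 9 with lower estimates, summed to 7586 to 9510 in wildtype and 5280 to 6458 in Col6a1-/- libraries without overlap, and their mean level was lowest in Col6a1-/- replicate 2 at -0.47, but was 0.10 in wildtype replicate 3, below the 0.42 and 0.33 of wildtype replicates 1 and 2. Natural killer cell markers were also lowest in Col6a1-/- replicate 2, at -0.55, and stood at -0.13 in wildtype replicate 3. They summed to 930 to 1122 in wildtype and 729 to 1326 in Col6a1-/- libraries. Red cell and precursor markers, 10 of 12 tested and all 10 with higher estimates, were at -0.35 in wildtype replicate 3 and 0.052 in Col6a1-/- replicate 2 and summed to 43667 to 49768 in wildtype and 64760 to 105250.5 in Col6a1-/- libraries. Germinal centre B cell markers (3 of 5 tested, all 3 lower) had the extremes of their mean level in the same libraries as the G2/M genes. This level was 0.097 in wildtype replicate 3 and -0.18 in Col6a1-/- replicate 2, and 1 of the 3 genes had both extremes there. The germinal centre B cell markers summed to 5268 to 5377 in wildtype and 4518 to 4971 in Col6a1-/- libraries. Fibroblast markers (5 of 6 lower) also had both extremes of their mean level in these 2 libraries, at 0.061 and -0.066, but wildtype replicate 1 stood at 0.052. Of the 6 genes 3 were highest in wildtype replicate 3, 2 were lowest in Col6a1-/- replicate 2, and 1 met both conditions. Dcn was lowest in wildtype replicate 3. The sums were 85466 to 98849 and 80625 to 85571. Alveolar macrophage markers, 8 of 8 lower, stood at 0.14 in wildtype replicates 2 and 3 and were lowest in Col6a1-/- replicate 2 at -0.22. Endothelial markers, 7 of 7 lower, stood at 0.059 in wildtype replicate 3 and -0.11 in Col6a1-/- replicate 2. T cell markers (6 of 9 lower) stood at -0.11 and -0.21 there. Alveolar type 1 markers (3 of 6 lower) stood at -0.063 and 0.11, and type 2 markers (6 of 7 lower) at 0.010 and -0.030. Cardiac muscle markers, 7 of 7 higher, were lowest in wildtype replicate 3 at -0.44 and summed to 12699 to 17087 in wildtype and 18201 to 19904 in Col6a1-/- libraries. Neutrophil and precursor markers (7 of 10 tested) had mean levels of -0.49 in wildtype replicate 3 and -0.51 in Col6a1-/- replicate 2. Of the 7, 2 were lowest in wildtype replicate 3 and 4 in Col6a1-/- replicate 2, where Prtn3 was highest. The tissue label was met by lung markers, with 443498 to 583425 normalized counts of the surfactant gene Sftpc per library.

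Among the proliferation markers, Mki67 (ENSMUSG00000031004.8, chromosome 7, 135689784 to 135716361, minus strand, GRCm38), which encodes the Ki-67 protein coating mitotic chromosomes, had normalized counts of 1052, 1092 and 1808 in wildtype replicates 1, 2 and 3. In Col6a1-/- replicates 1, 2 and 3 it had 1115, 651 and 893. Col6a1-/- replicate 1 lay above wildtype replicates 1 and 2, so the genotypes overlapped. Mki67 stood at 67.3% of wildtype, and the log2 fold change was -0.56 (SE 0.23, limma adjusted p 0.203). It was -0.31 without wildtype replicate 3 and -0.35 without Col6a1-/- replicate 2. Top2a (chromosome 11), the topoisomerase that untangles replicated DNA, had 655, 658 and 1237 in wildtype and 792, 471 and 718 in Col6a1-/- libraries. Its log2 fold change of -0.33 (SE 0.25, limma adjusted p 0.478) was -0.026 without wildtype replicate 3 and -0.10 without Col6a1-/- replicate 2, and -0.63 with the male share as a covariate. That wildtype library stood apart above the other 5.

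Of the mitotic kinases, Aurkb (ENSMUSG00000020897.12, chromosome 11, 69045647 to 69051664), the kinase of the chromosomal passenger complex, had the smallest p of all members. Its normalized counts were 133, 109 and 154 in wildtype and 111, 68.9 and 80.0 in Col6a1-/- libraries, and overlap was limited to Col6a1-/- replicate 1 lying above wildtype replicate 2. Aurkb stood at 65.6% of wildtype (log2 fold change -0.62, SE 0.21, limma adjusted p 0.159), and the estimate lay between -0.81 and -0.47 with each library left out. Its complex partners Cdca8 (borealin) and Birc5 (survivin) stood at 74.3% (adjusted p 0.334) and 84.1% (adjusted p 0.549) of wildtype. Cdca8 had 134, 116 and 182 normalized counts in wildtype and 90.7, 77.6 and 153 in Col6a1-/- libraries, with Col6a1-/- replicate 3 above wildtype replicates 1 and 2. Its log2 fold change of -0.46 was -0.26 without Col6a1-/- replicate 2, -0.28 without wildtype replicate 3 and -0.75 without Col6a1-/- replicate 3. Bub1b, the spindle checkpoint protein BubR1, was the G2/M member without overlap, at 350.0, 334 and 409 in wildtype and 328, 267 and 308 in Col6a1-/- libraries. It stood at 82.7% of wildtype (log2 fold change -0.27, SE 0.13, limma adjusted p 0.267). Its checkpoint partner Bub1 had an estimate in the other direction, 0.27 (SE 0.27, adjusted p 0.595). Bub1 had 92.4, 109 and 197 normalized counts in the wildtype libraries, and the Col6a1-/- libraries, at 116 to 187, lay inside that range. Aurka, Plk1 and Ttk, which act in spindle assembly, mitotic entry and the checkpoint, had log2 fold changes of -0.29 (adjusted p 0.449), -0.25 (adjusted p 0.388) and -0.11 (adjusted p 0.894).

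Of the mitotic motors, Kif20a, a kinesin of cytokinesis, had 192, 193 and 319 normalized counts in wildtype and 193, 98.4 and 187 in Col6a1-/- libraries, and Col6a1-/- replicate 2 stood apart below the other 5. Its log2 fold change was -0.58 (SE 0.27, limma adjusted p 0.267), and it was -0.26 without that library and -0.34 without wildtype replicate 3. Kif23, a subunit of the central spindle, followed with 357, 307 and 401 in wildtype and 322, 199 and 307 in Col6a1-/- libraries (log2 fold change -0.39, SE 0.19, limma adjusted p 0.272). Without Col6a1-/- replicate 2 the value for Kif23 was -0.17, and with the male share as a covariate it was -0.24. Kif11, the motor that pushes spindle poles apart, and the X-linked chromokinesin gene Kif4 had log2 fold changes of -0.0020 and -0.22.

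Among the cyclins and their kinase, Ccna2, cyclin A2, had 212, 205 and 473 normalized counts in wildtype and 336, 182 and 334 in Col6a1-/- libraries, and its log2 fold change was -0.0051 (SE 0.32). Ccnb1, Ccnb2 and Cdk1, which together drive entry into mitosis, stood at 74.3% (adjusted p 0.484), 94.5% (adjusted p 0.807) and 87.4% (adjusted p 0.636) of wildtype. Cdc20, the activator of the anaphase-promoting complex, had 236, 250.3 and 337 in wildtype and 235, 212 and 266 in Col6a1-/- libraries (log2 fold change -0.19, SE 0.16, limma adjusted p 0.514). The value for Cdc20 was -0.037 without wildtype replicate 3, -0.12 without Col6a1-/- replicate 2, -0.29 without wildtype replicate 1 and -0.35 with the male share as a covariate. The 3 G2/M members with higher estimates were Bub1, Cenpa (0.12) and Nusap1 (0.020), the last 2 encoding the centromeric histone and a spindle-binding protein.

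In S phase, the 6 genes of the MCM helicase, which unwinds DNA at the fork, varied little between libraries. Mcm3 (ENSMUSG00000041859.10, chromosome 1, 20802968 to 20820312, minus strand) had 967, 876 and 1007 normalized counts in wildtype and 774, 842 and 826 in Col6a1-/- libraries. All 3 Col6a1-/- libraries lay below all wildtype libraries, and Mcm3 stood at 85.7% of wildtype (log2 fold change -0.22, SE 0.096, limma adjusted p 0.231). Mcm5 had 517, 508 and 532 in wildtype and 416, 467 and 468 in Col6a1-/- libraries, again without overlap, at 86.7% of wildtype (adjusted p 0.283). Mcm2 had 615, 603 and 673 against 574, 593 and 576, at 92.2%, and Mcm7 had 882, 855 and 853 against 765, 839.7 and 846, at 94.6% (adjusted p 0.519 and 0.640). Mcm6 overlapped, with 1236, 1136 and 1259 in wildtype and 1037, 1214 and 1064 in Col6a1-/- libraries (adjusted p 0.457). Mcm4 was the MCM subunit with a higher estimate, 0.046 (SE 0.098). Thus 5 of 6 subunits had lower estimates, with a median of -0.12, where 48.3% of all tested genes were lower. Of the 6, 4 were lower without overlap, as were 14.2% of all tested genes. With the length and GC trend removed the estimates were -0.14 for Mcm3, -0.14 for Mcm5, -0.038 for Mcm2 and -0.032 for Mcm7. With the male share as a covariate they were -0.23 for Mcm2 and -0.29 for Mcm6. Leaving out 1 library moved Mcm2 to -0.068 (wildtype replicate 3), Mcm7 to -0.035 (Col6a1-/- replicate 1) and Mcm6 to -0.20 (Col6a1-/- replicate 2).

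E2f1, the transcription factor of G1/S genes, had 414, 430.3 and 402 normalized counts in wildtype and 365, 344 and 389 in Col6a1-/- libraries. These did not overlap, and E2f1 stood at 88.1% of wildtype (log2 fold change -0.18, SE 0.11, limma adjusted p 0.357). The value for E2f1 was -0.050 with the male share as a covariate. Cdc6, which loads the helicase onto origins, lay the other way at 71.7, 56.0 and 87.1 in wildtype and 75.4, 110.4 and 94.0 in Col6a1-/- libraries. Its log2 fold change of 0.38 (SE 0.22, limma adjusted p 0.345) was the highest of all members (-0.038 with the male share as a covariate, 0.22 without wildtype replicate 2 and 0.25 without Col6a1-/- replicate 2), and Col6a1-/- replicate 1 lay below wildtype replicate 3. Pcna, the sliding clamp, had 1321, 1306 and 1453 in wildtype and 1424, 1505 and 1596 in Col6a1-/- libraries, 111% of wildtype, with Col6a1-/- replicate 1 within the wildtype range (adjusted p 0.373). Its estimate was 0.15, 0.091 with the male share as a covariate, and -0.026 once a trend on transcript length and GC content was removed from each library. Rrm2, which makes deoxynucleotides, was highest in wildtype replicate 3 and lowest in Col6a1-/- replicate 2 like most G2/M members, with 199, 191 and 337 in wildtype and 226, 168 and 252 in Col6a1-/- libraries. Tyms, Cdc45, Gins2 and Ccne1 had log2 fold changes of -0.076, -0.16, 0.012 and 0.21, with SEs of 0.13 to 0.29.

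Levels between genes were compared as normalized counts per kb of the longest annotated transcript. Pcna was the highest member by a wide margin, at 896 ± 53.3 per kb in wildtype and 994 ± 56.7 in Col6a1-/- libraries (SD, n = 3 each). The MCM genes followed at 143 to 284 per kb as means of all libraries, in the order Mcm7, Mcm4, Mcm6, Mcm3, Mcm2 and Mcm5. In wildtype libraries Mcm7, Mcm6 and Mcm3 lay within their spread of each other, at 291 ± 5.40, 278 ± 14.9 and 277 ± 19.5 per kb, as did Mcm6, Mcm3 and Mcm4, the last at 264 ± 23.8. Top2a (145 per kb), Cdc20 (143) and E2f1 (142) stood beside Mcm5, and Mki67, although among the most counted members, came to 109 per kb. The lowest members were Ttk (13.8), Gins2 (16.8), Cdc6 (17.2) and Cenpf (18.4). The median was 143 per kb for S phase and 57.1 for G2/M.

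The phases also differed in how far libraries of 1 genotype lay apart. The SD within genotypes on the log2 scale was 0.10 in the median S-phase member and 0.37 in the median G2/M member, against 0.16 over all tested genes. Counting error alone gives an SD of 0.069 and 0.11 for these members. For the MCM genes the SD was 0.060 to 0.10, with 0.042 to 0.066 from counting. The 8 other S-phase members had a median SD of 0.25, with 0.12 from counting, so the low S-phase median rests largely on the MCM genes. The spread was widest for Ccna2 and Ttk at 0.60 and for Cenpf at 0.59, and the narrowest G2/M members were Bub1b at 0.15 and Plk1 at 0.17. Within S phase, Ccne1 (0.42), Rrm2 (0.38) and Gins2 (0.31) had the widest spread, and Ccne1 and Gins2 are low genes for which counting alone gives 0.21 and 0.18. The SE of the genotype difference followed, with a median of 0.11 for S-phase and 0.23 for G2/M members.

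**Figure D5:**
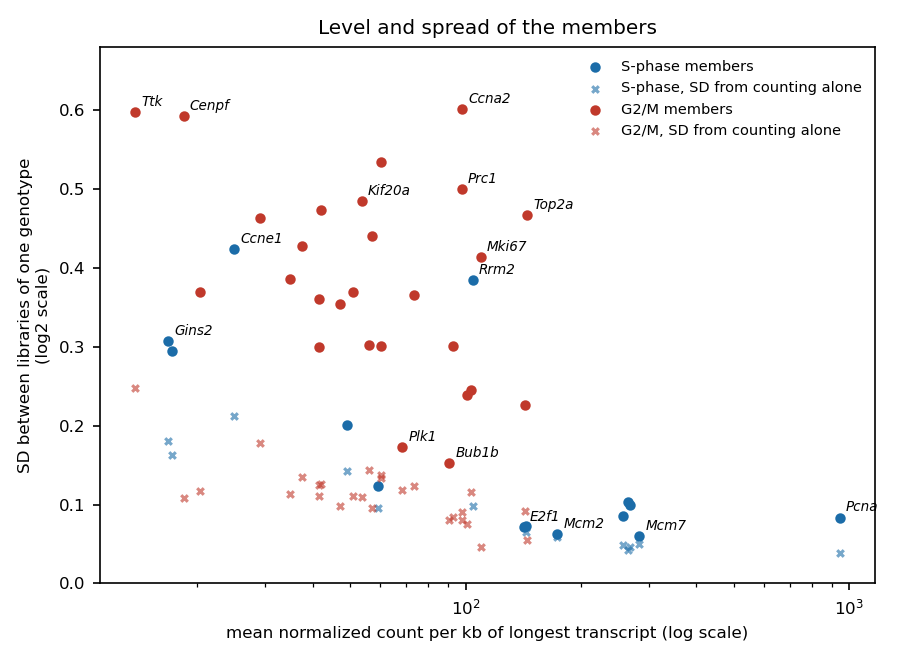
SD between libraries of 1 genotype on the log2 scale (vertical axis) against the mean normalized count per kb of transcript (horizontal, log scale) for S-phase (blue) and G2/M (red) members, with crosses for the SD that counting alone gives. G2/M members lie at 0.15 to 0.60 and the MCM genes at 0.060 to 0.10, with MCM crosses at 0.042 to 0.066.

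Genes of the same pathway outside the 41 members were listed as well, with 15.3% of all tested genes highest in wildtype replicate 3 as the background. Of 63 other mitotic genes 50 (79.4%) were highest in wildtype replicate 3 and 31 (49.2%) lowest in Col6a1-/- replicate 2. Of 52 other replication genes 31 (59.6%) were highest in wildtype replicate 3 and 13 lowest in Col6a1-/- replicate 2. No gene of either list was called, and their median log2 fold changes were -0.10 and -0.014. Foxm1, the transcription factor of G2/M genes, had 296, 295 and 390.2 normalized counts in wildtype and 278, 185 and 199 in Col6a1-/- libraries without overlap (log2 fold change -0.58, SE 0.18, limma adjusted p 0.132). Incenp, the scaffold of the passenger complex, stood at 80.7% of wildtype (adjusted p 0.154). Of the replication genes, E2f2 stood at 83.6% and Tipin, a fork protection factor, at 126% of wildtype, with adjusted p values 0.149 and 0.171.

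Of the regulators that decide on entry into the cycle, 2 of 10 G1 cyclin, CDK and Myc family genes and 1 of 17 CDK inhibitor and arrest genes were highest in wildtype replicate 3. Of those 10 G1 cyclin, CDK and Myc family genes 7 had lower estimates and 5 were lower without overlap, none called, against 48.3% and 14.2% of all tested genes. Myc had 347, 339 and 329 normalized counts in wildtype and 259, 256 and 231 in Col6a1-/- libraries, without overlap (log2 fold change -0.44, SE 0.11, limma adjusted p 0.103). Ccnd1, cyclin D1, stood at 84.5% of wildtype (adjusted p 0.158). Of the 17 inhibitor and arrest genes 14 had higher estimates, as did 51.7% of all tested genes, and none was called. Against that direction, Cdkn1a, which encodes the p21 inhibitor, stood at 57.2% of wildtype, with 3666, 4299 and 4100.1 in wildtype and 2689, 1404 and 2809 in Col6a1-/- libraries (log2 fold change -0.87, SE 0.22, limma adjusted p 0.101). Cdkn1b, which encodes p27, stood at 126% of wildtype (adjusted p 0.164). Among 13 pocket protein, MuvB and repressor E2F genes 8 had lower estimates and none was called, with E2f5 and Lin52 at 131% and 125% of wildtype (adjusted p 0.164 and 0.181). Of 15 anaphase-promoting complex genes 11 had higher estimates and none was called, and Anapc10 and Anapc4 stood at 134% and 116% of wildtype (adjusted p 0.187 and 0.218).

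Some members overlap other genes in the annotation. Whether the counting used strand is not stated in the sources used here. 10 members (Mcm7, Gins2, Cdc45, Ccna2, Cdc20, Cdca8, Kif20a, Kif4, Nusap1 and Prc1) share bases with an opposite-strand gene with a mean normalized count of at least 10. The values of these genes are uncertain to that extent. The named pseudogene copies Pcna-ps2 and Ccnb2-ps had mean normalized counts of 4.26 and 2.54.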

How the data were processed

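Total RNA of 6 pooled lung libraries, 3 for each genotype, was measured. The submitters' processing notes name Trimmomatic 0.36, STAR 2.5.2b, Subread 1.5.0p3 with featureCounts, DESeq2 1.16.1, R 3.4.1 and the build GRCm38.p5, without roles. The authors deposited normalized counts per gene (a signal: reads divided by 1 DESeq2 size factor per library, per the file headers and values). The header of wildtype replicate 2 adds the word New. The authors' deposited table of the comparison gives a mean and a test statistic (scores), the log2 fold change, and p-values, raw and adjusted.

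Whole reads were recovered by dividing by the smallest value above 0 (100% of values whole to within 1e-06). The step of Col6a1-/- replicate 3 lies too near 1 to test this by itself. Genes reaching a normalized count of 10 in 3 or more libraries entered limma 3.58.1 (limma-trend, R 4.3.3), as a two-sided test of log2(normalized count + 1), with Benjamini-Hochberg adjusted p over every gene tested, called below 0.05. Fold changes are on this log2 scale, which understates those of low genes. The step was tested on simulated data. Percentages of wildtype are ratios of mean normalized counts. Positions and transcript lengths come from GENCODE M21 (GRCm38, matched by symbol for 95.3% of rows).

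Alternatives were pseudocounts of 0.5 and 5, no filter or one at 50 on low values, quantile normalization, median centring, edgeR 4.0.16 and DESeq2 1.42.0 on recovered reads, a replicate block, the male share as a covariate, removal of a length and GC trend (splines with 5 degrees of freedom each), and each library left out. Members, lists and tests were chosen with earlier results of these data known. Values per library are given for Mki67, Top2a, Mcm2, the 6 members with the smallest p and the 2 with the highest level per kb in each phase, and for further members as comparison. Of each pathway list, the 2 genes with the smallest p are named. Marker lists were made for 13 cell types.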

Additional observations from a re-analysis of the deposited data

How the results depend on the processing

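Under all 17 alternatives no member was called, and the medians of both phases stayed below 0. With each library left out the G2/M median ran from -0.38 to -0.037, the S-phase median from -0.15 to -0.0043, their difference from -0.27 to 0.0042 (above 0 without Col6a1-/- replicate 2), the members with higher estimates from 5 to 17 and the members without overlap from 7 to 12 (17.1% to 29.3%, beside 29.6% to 46.4% of all tested genes in the same fits), while Col6a1 ran from -1.08 to -0.94 and lost its call without wildtype replicate 1 and without Col6a1-/- replicate 3 (adjusted p 0.066 and 0.123). These fits hold fewer libraries.

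With the male share as a covariate the S-phase median was -0.24, 1 member had a higher estimate, Cdc6 was at -0.038 and Col6a1 at -1.25 (adjusted p 0.135, not called; 9.03e-17 to 0.135 over all its alternatives). With the length and GC trend removed Pcna was at -0.026 and 2 members did not overlap, and with quantile normalization 10 did not overlap (24.3% and 23.3% of all tested genes). The median of all tested genes was -0.0026 with that trend removed, -0.0067 with quantile normalization and -0.028 with median centring. The cause was not tested. Members at an unadjusted p under 0.05 numbered 0 to 8.

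The labels do not say whether same-numbered pools of the 2 genotypes were handled together. Same-numbered pools correlated at -0.136, 0.106 and -0.0059 in their deviations, within the range of -0.152 to 0.200 over all pairs. With 3 pools per genotype these values cannot decide whether the pools were paired. With the replicate block no member was called, the medians were -0.099 and -0.25, 5 members had an unadjusted p under 0.05, and the genes called over all were 7 instead of 11.

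The SE of the genotype difference was 0.13 to 0.37 for G2/M and 0.091 to 0.29 for S-phase members. Nothing in the labels ties the pools to a batch.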
